A study of Mus musculus with 4 samples.

Results

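The clustered histone genes of the mouse encode the H1, H2A, H2B, H3 and H4 proteins that package newly made DNA. They were taken here as every row of the deposited count table whose symbol starts with Hist1h, Hist2h, Hist3h or Hist4h, which gave 68 of 23337 gene rows: 6 for H1, 18 for H2A, 19 for H2B, 12 for H3 and 13 for H4. One of the H2B rows, Hist3h2bb-ps, is annotated as a processed pseudogene and the other members as protein-coding. Of the 68, 54 lie on chromosome 13, 10 on chromosome 3, 3 on chromosome 11 and 1, Hist4h4, on chromosome 6. RNA was measured in dissected cardiac cushions of C57BL/6 embryos at embryonic day 14.5; cushions are the tissue of the outflow tract and the atrioventricular canal from which heart valves form. There were 2 libraries from Nfatc1Cre;Brg1F/F mutants, in which Nfatc1-Cre removes the floxed Brg1 gene (symbol Smarca4, the ATPase of SWI/SNF chromatin remodelling complexes) in the endocardial lineage, and 2 libraries from wildtype littermates. The tissue was dissected by the fluorescence of a Cre reporter and its total RNA was depleted of ribosomal RNA, so transcripts without a poly(A) tail were kept. Whether each library was made from a single embryo or a pool is not given in the sources used here. A p-value therefore covers the spread between libraries, part of which may be technical. Fits with genotype and replicate number both in the model leave little such spread, so their p-values rest largely on spread estimated across genes.

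Most messenger RNAs end in a poly(A) tail, but messages of the clustered histone genes end just after a short stem-loop, to which the stem-loop binding protein SLBP attaches. The genes are short and mostly without introns, and they are transcribed in S phase, when DNA is copied. Many H2A and H2B genes stand back to back and share the stretch between their start sites. Many members of a class, above all of H2A, are close copies, and a read that fits several of them cannot be placed.

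Reads in genes numbered 22426537 and 14104458 in mutant replicates 1 and 2, and 19218820 and 15790338 in wildtype replicates 1 and 2. Levels are given as CPM, counts scaled to the library size by the TMM method, and 3 reads, taken as the counting limit, came to 0.132 to 0.212 CPM. Smarca4 measured 282 and 239 CPM in mutant replicates 1 and 2, against 251 and 231 CPM in wildtype replicates 1 and 2, so that the deleted gene showed no fall over its whole length (log2 difference 0.11 ± 0.14 (SE), adjusted p = 0.979 by edgeR's quasi-likelihood test). The libraries of replicate number 2 were not of one sex. Xist, transcribed from the inactive X chromosome of females, stood at 13.3 CPM in mutant replicate 2 and at 2046 to 2657 CPM in the other 3 libraries, and 4 Y-linked genes held 8400 reads in mutant replicate 2 and 72 in wildtype replicate 2, against 0 in both libraries of replicate number 1. Reads aligned to several places made up 16.2% and 16.1% of all tallied reads in mutant and wildtype replicate 2, and 17.0% and 16.9% in mutant and wildtype replicate 1. The endocardial markers Tek and Cdh5 lay at 232 to 302 CPM in the 4 libraries and the mesenchymal marker Vcan at 1793 to 2304 CPM. Ttn, the titin gene of heart muscle, lay at 29532 to 37471 CPM, so muscle was present in all 4 libraries. In such bulk samples, fewer cells of a type and less RNA per cell cannot be told apart.

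The stem-loops of the members that the results turn on are shown first. Messages of this kind end there, and H4 differed from the other classes in its letters. A run of 6 stem, 4 loop and 6 stem letters of this form was sought in annotated transcripts (GENCODE M21, mm10). It was found for 46 of the 68 members. Among the genes called below it was not found for Hist1h2ai, Hist1h2an, Hist1h2ah and Hist1h4k. Their annotated exons hold 393, 393, 405 and 312 bases, and whether these stop short of a stem-loop was not tested. In some members the annotated exons run well past the stem-loop. It stands at offset 352 in Hist1h4d, which has 1138 exon bases, and at offset 487 in Hist3h2a, which has 2146. Whether reads came from such longer forms was not tested. Capitals mark the stem-loop, and 7 letters stand on each side.
Hist1h2ag: caacaaaGGCTCTTTTCAGAGCCacctaac
Hist1h2ad: aaacaaaGGCTCTTTTCAGAGCCatccact
Hist3h2a: caccaaaGGCTCTTTTCAGAGCCacccaca
Hist1h2bg: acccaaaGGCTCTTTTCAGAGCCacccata
Hist1h2bb: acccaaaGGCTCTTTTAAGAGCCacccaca
Hist1h3g: ctttaaaGGCTCTTCTTAGAGCCacccatc
Hist1h4c: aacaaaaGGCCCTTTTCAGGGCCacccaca
Hist1h4f: tctcaaaGGCCCTTTTCAGGGCCacccact
Hist1h4h: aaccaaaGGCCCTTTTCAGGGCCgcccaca
Hist1h4a: aaccaaaGGCCCTTCTCAGGGCCgcccaca
Hist1h4j: ccctaaaGGTCCTTTTCAGGACCaccacat
Hist1h4d: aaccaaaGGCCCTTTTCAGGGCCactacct
Hist1h4i: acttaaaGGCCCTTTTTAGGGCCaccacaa
All 34 stem-loops found outside H4 (4 of H1, 11 of H2A, 10 of H2B and 9 of H3) had the stem arms of Hist1h2ag. None of the 12 found for H4 had them. Counted from 1 at the first capital, 10 of the 12 differed from Hist1h2ag by T4C and A13G in the stem, and the other 2, Hist1h4b and Hist1h4j, by C3T, T4C, A13G and G14A. These are substitutions that keep the arms paired, written with the letter of Hist1h2ag first.

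The clustered histone genes together took 0.252% to 0.360% of gene reads in a library. H2B was the class with the highest summed CPM in each of the 4 libraries. H2B summed to 998 and 909 CPM in mutant replicates 1 and 2, against 1751 and 1030 CPM in wildtype replicates 1 and 2. H4 summed to 574 and 665 CPM in the mutants, against 852 and 529 CPM in the wildtypes. H1, the linker histone that binds DNA between nucleosomes, summed to 564 and 676 CPM in the mutants, against 583 and 639 CPM in the wildtypes. H2A summed to 406 and 265 CPM in the mutants, against 445 and 252 CPM in the wildtypes. H3 was the lowest class, at 52.5 and 62.7 CPM in the mutants, against 51.0 and 55.4 CPM in the wildtypes. The libraries of the 2 genotypes overlapped in H1, H2A, H3 and H4. In H2B both mutant libraries lay below both wildtype libraries, and wildtype replicate 1 stood far above the other 3 libraries.

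**Figure D1:**
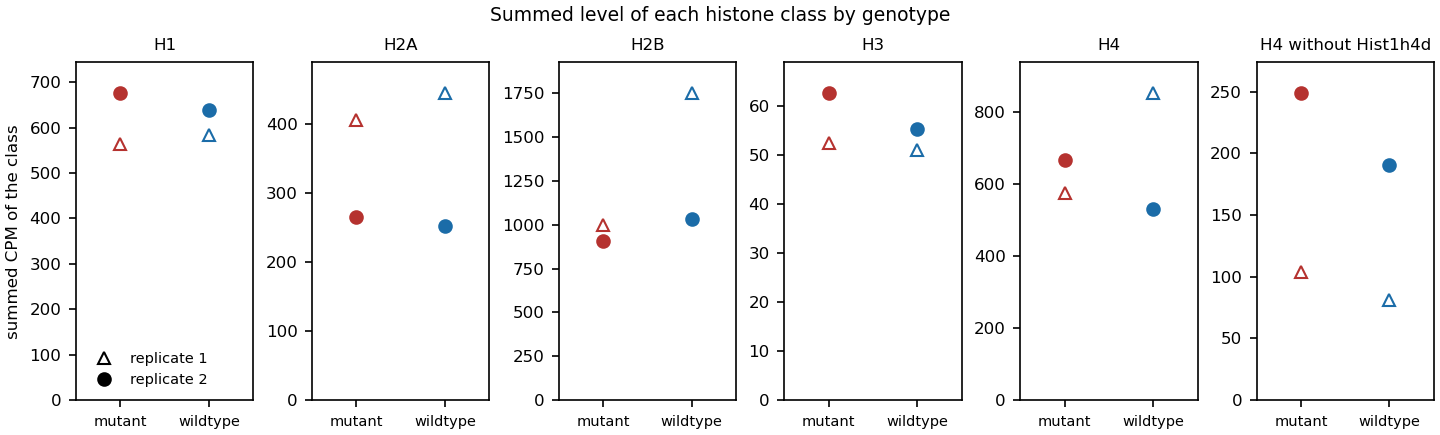
Summed CPM of the members of each histone class in the 4 libraries, with mutants left and wildtypes right, triangles for replicate 1 and circles for replicate 2; each panel has its own axis from 0. H2A lies lower in replicate 2 in both genotypes, and H4 without Hist1h4d lies higher there, at 249 and 191 CPM against 104 and 81.5 CPM in replicate 1.

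Reads within a class were spread unevenly. Hist1h4d held 77.7% of all H4 reads and 17.8% of the reads of all 68 members. Hist2h2bb held 33.5% of H2B reads, Hist1h1c 26.1% of H1 reads, Hist3h2a 24.3% of H2A reads and Hist1h3c 19.9% of H3 reads. Per kilobase of exon, the mean over the 4 libraries was 1049 CPM per kilobase for Hist2h2bb, 657 for Hist1h2bb, 438 for Hist1h4d and 343 for Hist1h2bg. Of the 68 members, 57 passed the filter on low counts and were tested: 6 of H1, 13 of H2A, 16 of H2B, 11 of H3 and 11 of H4. There were 6 members without a read in any library, Hist1h2ao, Hist1h2ap, Hist2h2aa2, Hist1h2bq, Hist1h2br and Hist1h4m. A median of 6.71% of their 50-base windows occur in no other member, against 59.6% for the tested members, so that few stretches of these 6 genes are their own. Hist1h2aa and Hist1h2ba, whose products are known from the testis, held at most 0.176 CPM in any library. Hist2h2aa1, Hist1h4n and Hist2h3c2, the other untested members, lay between 0.0440 and 0.635 CPM.

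Replicate number separated these genes more often than it separated other genes. With genotype in the model, 14 of the 57 tested members were called (edgeR's quasi-likelihood test, adjusted p under 0.05) for replicate 2 against replicate 1, that is 24.6%, where 0.454% of all 14316 tested genes passed (65 genes). The 6 that were higher in replicate 2 were all H4 genes, against a background of 0.3% of tested genes called higher. The 8 that were lower in replicate 2 were 6 H2A genes, the H2B gene Hist1h2bg and the H3 gene Hist1h3g, against a background of 0.154% called lower. Of the 22 genes called lower in the whole table, 36.4% were clustered histone genes. What a replicate number stands for (a litter, a dissection day or a library batch) is not given in the sources used here.

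Histone H4 forms the tetramer at the core of the nucleosome together with H3. Hist1h4c (chromosome 13, 23697635 to 23698454) measured 33.4 CPM in mutant replicate 2 and 22.8 CPM in wildtype replicate 2, against 4.93 CPM in mutant replicate 1 and 2.24 CPM in wildtype replicate 1. Both libraries of replicate 2 lay above both of replicate 1, by 8.09-fold in the fit (log2 difference 3.02 ± 0.24 (SE), edgeR adjusted p = 2.37e-08). Hist1h4f (chromosome 13, 23551258 to 23551648) measured 56.9 CPM in mutant and 39.1 CPM in wildtype replicate 2, against 16.9 CPM in mutant and 12.6 CPM in wildtype replicate 1, a 3.23-fold difference (edgeR adjusted p = 1.14e-05).

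The other 4 called H4 genes differed by 2.05- to 2.47-fold. Hist1h4h averaged 27.7 ± 1.40 CPM in replicate 2, against 11.4 ± 1.94 CPM in replicate 1 (SD, n = 2 libraries each). Hist1h4k measured 38.5 and 28.3 CPM in mutant and wildtype replicate 2, against 18.2 and 14.3 CPM in replicate 1. Neither gene overlapped between the replicate numbers. Hist1h4a measured 26.2 and 19.5 CPM in mutant and wildtype replicate 2, against 10.4 and 9.79 CPM in replicate 1. Hist1h4j measured 15.2 and 12.7 CPM in replicate 2, against 6.55 and 4.84 CPM in replicate 1. The edgeR adjusted p-values of these 4 genes ran between 9.58e-04 for Hist1h4h and 0.00748 for Hist1h4k.

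Across the 11 tested H4 genes the median log2 difference was 1.03, beside 0.000 over all tested genes. The libraries did not overlap in any of the 11: 9 were higher in replicate 2, where 15.7% of all tested genes lie higher without overlap, and 2 were lower, where 15.4% do. Hist1h4b, Hist4h4 and Hist2h4 had differences of 0.83, 0.86 and 0.87 and did not pass. Hist1h4d and Hist1h4i went the other way. Hist1h4d measured 415 and 338 CPM in mutant and wildtype replicate 2, against 469 and 770.2 CPM in mutant and wildtype replicate 1 (log2 difference -0.68 ± 0.21 (SE), edgeR adjusted p = 0.301). Hist1h4i measured 6.78 and 7.38 CPM in replicate 2, against 9.94 and 9.21 CPM in replicate 1 (log2 difference -0.44). The stem-loop shown above for Hist1h4d has the same 16 letters as that of Hist1h4c. The part of the stem-loop letters in the differences was not tested.

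**Figure D2:**
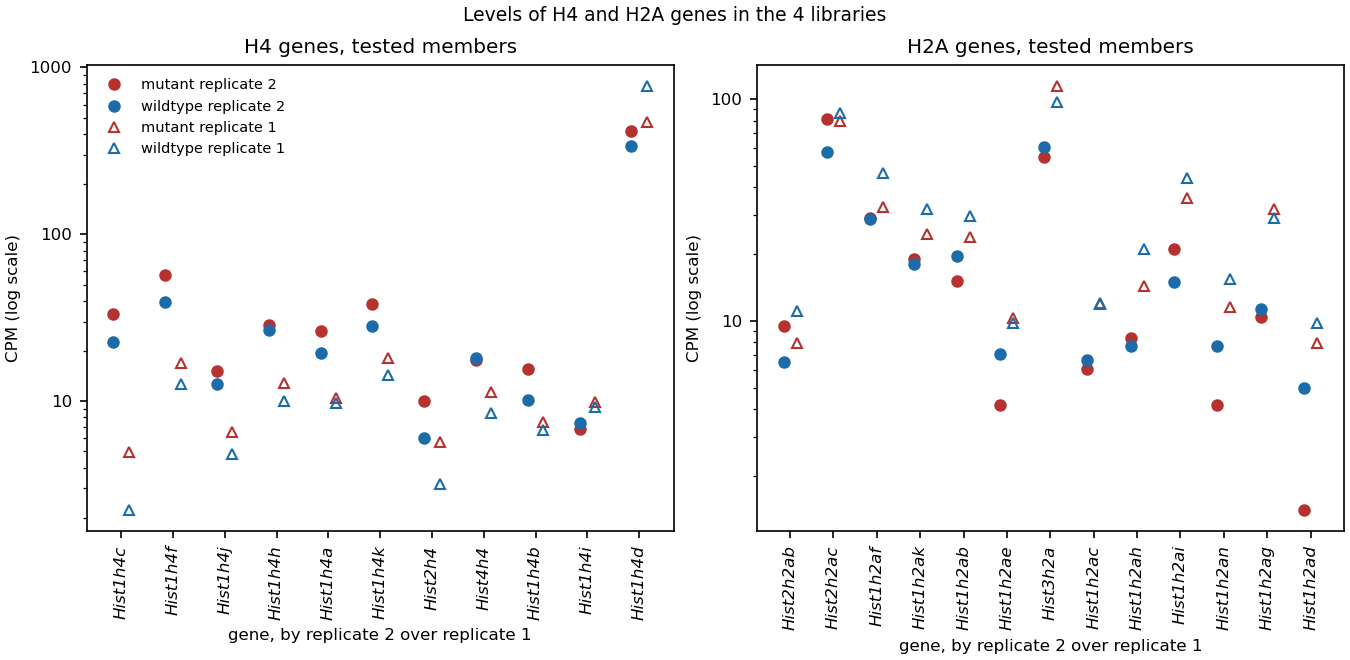
CPM on a log axis of the 11 tested H4 genes (left) and the 13 tested H2A genes (right), ordered by the difference between replicate numbers; filled circles are replicate 2 and open triangles replicate 1, red for mutant and blue for wildtype. For 9 of 11 H4 genes both circles lie above both triangles, and for 11 of 13 H2A genes both lie below.

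H2A and H2B form the dimers that flank the H3 and H4 tetramer in the nucleosome. All 13 tested H2A genes had a negative difference, with a median of -0.87 on the log2 scale. In 11 of the 13 both libraries of replicate 2 lay below both of replicate 1, where 15.4% of all tested genes do; the exceptions were Hist2h2ac and Hist2h2ab, both on chromosome 3. Hist1h2ag (chromosome 13, 22042460 to 22042944) measured 10.4 and 11.3 CPM in mutant and wildtype replicate 2, against 31.8 and 29.1 CPM in mutant and wildtype replicate 1. Its ratio was 0.357 in the fit (log2 difference -1.48 ± 0.20 (SE), edgeR adjusted p = 1.67e-04). Hist3h2a, the H2A gene with the most reads, lies on chromosome 11 (58954685 to 58956830), away from the large cluster. It measured 54.8 and 60.9 CPM in replicate 2, against 114 and 97.4 CPM in replicate 1 (log2 difference -0.87 ± 0.17 (SE), edgeR adjusted p = 0.0140). Of the 50-base windows of Hist3h2a, 98.0% are found in no other member. The other tested H2A genes outside chromosome 13, Hist2h2ac and Hist2h2ab, had differences of -0.27 and -0.26 and did not pass. Of their windows, 62.6% and 79.0% are found in no other member.

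Hist1h2ad had the most negative fitted difference among H2A genes, -1.60, with 1.41 and 4.98 CPM in mutant and wildtype replicate 2, against 7.96 and 9.79 CPM in replicate 1. Hist1h2ai, Hist1h2an and Hist1h2ah passed with differences of -1.16, -1.22 and -1.11. Their copies are hard to tell apart: 15.4%, 14.2% and 9.27% of their windows are found in no other member. Their values may therefore share reads with their copies and are uncertain one by one. The limit also holds for other named genes. The share was 21.1% for Hist1h2ag, 32.9% for Hist1h2ad, 28.5% for Hist1h4k and 45.9% for Hist1h3g. It was 50.3% for Hist1h2bg and 59.9% for Hist1h2bb. Among the other called H4 genes it ran between 54.2% for Hist1h4h and 80.4% for Hist1h4c.

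H2B had no common direction: 12 of 16 tested genes had a positive and 4 a negative difference, with a median of 0.11. Hist1h2bg (chromosome 13, 23571396 to 23572013) had the most negative difference of all 57 tested members. It measured 42.3 and 129.8 CPM in mutant and wildtype replicate 2, against 210 and 466 CPM in mutant and wildtype replicate 1 (ratio 0.238, log2 difference -2.07 ± 0.18 (SE), edgeR adjusted p = 9.2e-08). Hist2h2bb, the H2B gene of highest mean CPM over the 4 libraries, measured 452 and 342 CPM in mutant and wildtype replicate 2, against 370 and 435 CPM in mutant and wildtype replicate 1, which overlap. In wildtype replicate 1 it was below Hist1h2bb (603 CPM) and Hist1h2bg. In H3, Hist1h3g measured 3.11 and 4.86 CPM in mutant and wildtype replicate 2, against 9.94 and 9.37 CPM in replicate 1 (edgeR adjusted p = 0.0296), while Hist1h3d, Hist1h3a and Hist1h3f had positive differences of 1.38, 1.25 and 1.13 that did not pass. The H1 genes lay close together, between -0.01 for Hist1h1e and 0.46 for the testis-type H1 gene Hist1h1t, and 0 of 6 passed by edgeR or by DESeq2. At an unadjusted p under 0.05 there were also 0 H1 genes, where 2.72% of tested genes were higher and 1.9% lower. The annotated span of Hist1h2be (23583670 to 23621124) overlaps that of Hist1h1e (23620629 to 23622558), so reads in the overlap cannot be told apart.

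The difference between replicate numbers was measured in both genotypes. Across the 57 tested members, the log2 difference of the mutant libraries correlated with that of the wildtype libraries at r = 0.83, with the same sign in 46. Within classes the correlation was 0.927 in H4, 0.802 in H3, 0.745 in H2B, 0.321 in H1 and 0.271 in H2A. The sign was the same in 11 of 11 H4, 9 of 11 H3, 9 of 16 H2B, 6 of 6 H1 and 11 of 13 H2A genes. Across all 14316 tested genes the correlation was 0.144 and 46.8% had the same sign. These are descriptions across genes; the genes share their libraries and are no independent replicates. Hist1h4c differed by 2.73 in the mutants and 3.29 in the wildtypes, Hist1h4f by 1.74 and 1.62, and Hist1h2bg by -2.31 and -1.84. Hist1h2ad differed more in the mutants (-2.41) than in the wildtypes (-0.96), and Hist1h4d less (-0.18 in the mutants, -1.19 in the wildtypes). Whether the difference itself depends on genotype was not tested, because 4 libraries leave no spread for that test.

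**Figure D3:**
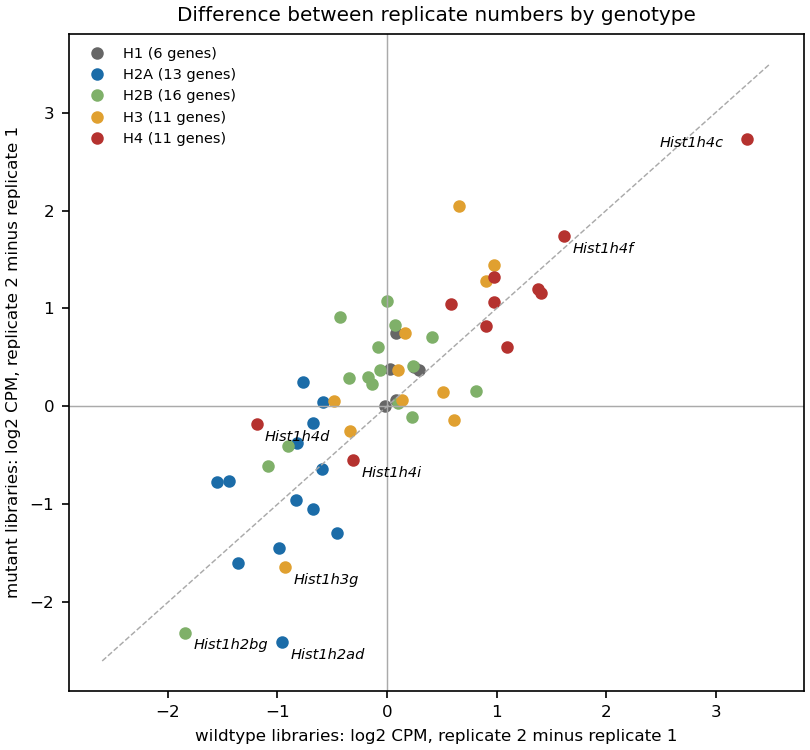
Log2 CPM of replicate 2 minus replicate 1 in the mutant libraries (vertical) and in the wildtype libraries (horizontal) for the 57 tested members, coloured by class; the dashed line marks equal values. Most H4 genes lie at the upper right and H2A genes at the lower left, with Hist1h4d and Hist1h4i on the side of H2A.

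Both directions were found within the same stretches of chromosome 13. Members on chromosome 13 fall into blocks when split at gaps over 100000 bases. In the first block, 21715763 to 21837530, the 3 tested H2A genes lay between -1.22 and -0.60 and the 2 tested H4 genes at 1.03 and 1.30. In the third block, 23531050 to 23764406, the 5 tested H2A genes lay between -1.60 and -0.43, and 5 of 6 H4 genes were positive. In the second block, 22035164 to 22043676, the 2 H2A genes lay at -1.48 and -1.11 and the single H4 gene, Hist1h4i, at -0.44.

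Divergent pairs give the closest comparison, since their start sites lie 172 to 305 bases apart. Of 13 such pairs, 10 were H2A and H2B pairs with both genes tested; in 1 of them the partner of Hist3h2a is the pseudogene row Hist3h2bb-ps. The H2A gene was negative in 10 of 10 pairs, between -1.60 and -0.27, while the H2B gene was negative in 2. In 9 of 10 pairs the H2A gene had the lower value. Hist1h2ag stood at -1.48 ± 0.20 (SE) and its partner Hist1h2bj at 0.33 ± 0.24, and Hist1h2ad stood at -1.60 ± 0.32 and its partner Hist1h2bf at 0.07 ± 0.23. The exception was Hist1h2ae at -0.87 ± 0.27 beside Hist1h2bg at -2.07 ± 0.18. The difference between partners was not tested.

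**Figure D4:**
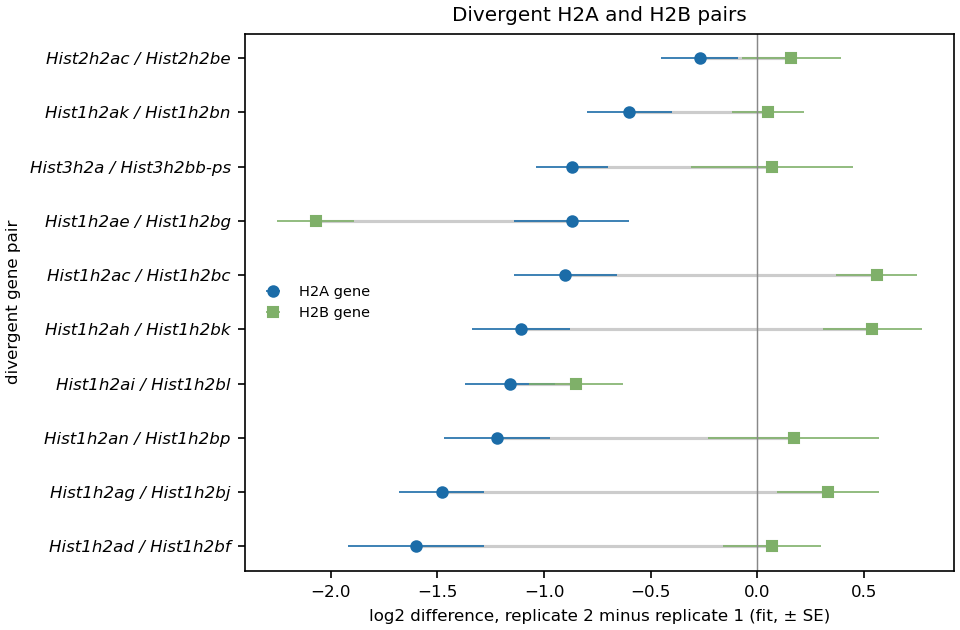
Log2 difference of replicate 2 minus replicate 1 (fit, bars ± SE) for the H2A gene (circle) and the H2B gene (square) of 10 divergent pairs. The circle lies left of the square in 9 pairs, the exception being Hist1h2ae and Hist1h2bg.

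Promoters are shown for genes of both directions, from RefSeq (GRCm38.p6, mm10), for which 62 of the 68 members matched. Each runs over 250 bases before and 50 bases after the annotated start, and capitals mark the CCAAT box (CCAAT), the TATA box (TATAAA) and the octamer (ATTTGCAT, bound by POU2F1), searched on both strands.
Hist1h2ag, chr13:22042900-22043199 (minus strand): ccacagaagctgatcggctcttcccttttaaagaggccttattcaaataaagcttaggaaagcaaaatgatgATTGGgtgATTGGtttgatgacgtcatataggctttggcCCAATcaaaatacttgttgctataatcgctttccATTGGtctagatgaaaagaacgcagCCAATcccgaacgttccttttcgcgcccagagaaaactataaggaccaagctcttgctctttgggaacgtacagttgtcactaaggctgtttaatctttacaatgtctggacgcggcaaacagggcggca
Hist1h2bg, chr13:23571150-23571449 (plus strand): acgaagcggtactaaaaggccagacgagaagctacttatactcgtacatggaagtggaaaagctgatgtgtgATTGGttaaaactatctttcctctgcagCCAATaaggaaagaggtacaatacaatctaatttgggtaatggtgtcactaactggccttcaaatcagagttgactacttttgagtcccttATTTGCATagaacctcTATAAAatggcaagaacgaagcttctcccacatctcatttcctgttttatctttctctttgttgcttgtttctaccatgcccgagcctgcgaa
Hist1h2bb, chr13:23746484-23746783 (plus strand): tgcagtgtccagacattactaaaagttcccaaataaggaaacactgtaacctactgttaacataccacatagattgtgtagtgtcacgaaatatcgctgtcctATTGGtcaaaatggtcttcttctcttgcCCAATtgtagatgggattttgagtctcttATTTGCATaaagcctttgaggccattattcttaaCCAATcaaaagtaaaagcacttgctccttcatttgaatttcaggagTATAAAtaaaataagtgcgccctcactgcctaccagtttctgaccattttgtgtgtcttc
Hist1h4c, chr13:23698409-23698708 (minus strand): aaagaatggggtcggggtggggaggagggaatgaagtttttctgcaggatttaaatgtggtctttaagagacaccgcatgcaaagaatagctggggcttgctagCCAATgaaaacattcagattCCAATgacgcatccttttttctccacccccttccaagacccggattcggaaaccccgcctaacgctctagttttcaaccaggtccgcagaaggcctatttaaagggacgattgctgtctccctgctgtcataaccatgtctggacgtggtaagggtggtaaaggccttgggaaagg
Hist1h4d, chr13:23581318-23581617 (plus strand): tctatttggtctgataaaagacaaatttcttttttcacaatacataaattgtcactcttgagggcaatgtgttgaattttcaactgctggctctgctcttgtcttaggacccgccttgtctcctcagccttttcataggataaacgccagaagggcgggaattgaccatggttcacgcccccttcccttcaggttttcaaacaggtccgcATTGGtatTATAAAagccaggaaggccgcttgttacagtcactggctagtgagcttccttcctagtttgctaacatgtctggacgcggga
The letters CCAAT were found in all 50 matched promoters of H1, H2A, H2B and H3 (6, 18, 16 and 10), but in 3 of 12 for H4, that is 25.0%, beside 37.4% of all 32851 promoters in the table. Hist1h4c and Hist1h4d were both among those 3 H4 genes. The octamer was found in 7 of 18 H2A and 7 of 16 H2B promoters and in 0 of 6, 0 of 10 and 0 of 12 for H1, H3 and H4, beside 1.74% of all promoters. Hist1h2bg and Hist1h2bb both hold it. TATAAA was found in 4 of 6 H1, 11 of 18 H2A, 8 of 16 H2B, 4 of 10 H3 and 8 of 12 H4 promoters, beside 13.6% of all. Windows of back-to-back partners overlap, as for Hist1h2ae and Hist1h2bg, so the same letters can count for both genes and both classes. A match is a description of the letters in this window and not a bound site.

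Several measured properties moved with class or replicate number, and their part in the result was not tested. A median of 27.0% of 50-base windows was found in no other member for H2A genes, 59.9% for H2B, 42.8% for H3, 60.5% for H4 and 98.9% for H1. Median GC content was 64.2% for H2A, 56.3% for H2B, 59.9% for H3, 56.2% for H4 and 53.1% for H1. As a description across genes that share their libraries, the difference correlated with GC content at -0.312 over the 57 tested members, and within classes between -0.558 in H3 and 0.503 in H1. With the share of windows found in no other member it correlated at 0.302 over the 57, and within classes between -0.136 in H4 and 0.739 in H1. Other short RNAs without a poly(A) tail (small nucleolar and Cajal body RNAs and the like, 64 tested of 126 rows) summed to 1135 and 773 CPM in mutant and wildtype replicate 2, against 557 and 565 CPM in mutant and wildtype replicate 1. Of these, 4 were higher in replicate 2 and 0 lower by edgeR: Scarna10, Snora74a, Scarna13 and Rmrp, the RNA component of RNase MRP. Rmrp measured 409.8 and 220.2 CPM in replicate 2, against 163 and 136 CPM in replicate 1 (edgeR adjusted p = 0.0045), and Scarna10 measured 85.0 and 40.9 CPM, against 14.5 and 15.5 CPM.

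Polyadenylated genes linked to histones or the cell cycle did not pass by replicate number. Among 26 factors of histone messenger processing and transcription 0 passed by edgeR, with a median of 0.00; Zcchc11, a terminal uridylyl transferase, was at -0.09 and Casp8ap2, a factor of histone gene transcription, at -0.12. Among 11 tested replication-independent histone genes 0 passed, with H3f3a and H3f3b, which encode histone H3.3, at 0.01 and 0.14. Among 31 genes of S phase and DNA replication 0 passed, 8 being positive and 23 negative (median -0.13), with Rrm1, a ribonucleotide reductase subunit, at 0.05 and cyclin gene Ccna2 at 0.19. Their median was 0.02 within the mutant libraries and -0.22 within the wildtype libraries. Among 22 mitotic genes 0 passed, 21 being positive and 1 negative (median 0.13), with Mki67 at -0.04 and Top2a at 0.13. The mitotic median was 0.3 within the mutant libraries and -0.05 within the wildtype libraries, so the genotypes did not share it. Among 19 tested histone chaperones 0 passed, with Npm1 at -0.12 and Atrx at 0.06. Over the 6 lists of cell type markers 0 genes passed by replicate number, with medians between -0.30 for erythroid and 0.27 for hepatocyte markers. The hepatocyte median was 0.76 within the mutant and -0.23 within the wildtype libraries, and the erythroid median -0.22 within each.

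The number of calls by replicate number depended on the model. With genotype left out of it, 2 members passed, Hist1h2ag and Hist1h4c, where 7 of all 14316 tested genes did. A model with both terms could not be fitted to 3 libraries with a spread left to estimate, so the 14 calls were not tested against leaving out a library. DESeq2 called 9 members, all 9 among the 14, where 0.188% of its tested genes were called. Its adjusted p was 2.1e-17 for Hist1h4c and 1.45e-19 for Hist1h2bg. Not called by DESeq2 were Hist1h2an (adjusted p = 0.224), Hist1h2ah (0.291), Hist1h2ad (0.183), Hist1h3g (0.527) and Hist1h4j (0.0795). Hist1h3g was also not called by edgeR with upper-quartile scaling or with a filter of 5 CPM in 2 libraries.

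The comparison the study was designed for asks how transcript levels change once the endocardial lineage has lost Brg1. Between mutants and wildtypes, 0 of the 57 tested members passed by edgeR without the replicate block, where 0.0629% of tested genes passed (9 genes). At an unadjusted p under 0.05 there were 0 members higher, where 3.88% of tested genes were, and 2 lower, Hist1h2bb and Hist1h2bp, where 1.9% were. DESeq2 and limma-voom called 0 members each, where they called 0.316% and 0.0489% of genes. Both were run on genotype alone and not with the block. Without mutant replicate 1 the count of members became 11, where 1.24% of tested genes passed (180 genes), and without mutant replicate 2 it became 3, where 3% did (443 genes), with the lone library assumed to vary like the other group. The series describes the libraries as 2 pairs of mutants and littermates, and with the replicate number as a block 2 members passed, where 0.887% of tested genes did. Both are H2B genes and were lower in mutants, where 0.196% of tested genes were called lower (28 genes). The p-values and SEs with the block rest largely on spread estimated across genes, since few libraries are left per term.

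Hist1h2bb (chromosome 13, 23746734 to 23747241) measured 232 and 176 CPM in mutant replicates 1 and 2, against 603 and 324 CPM in wildtype replicates 1 and 2. Both mutant libraries lay below both wildtype libraries. Its log2 fold change was -1.18 ± 0.26 (SE, edgeR adjusted p = 0.207) without the block and -1.13 ± 0.18 (adjusted p = 0.00116) with it, and in the pairs it was -1.38 and -0.88. With 1 library left out and no block, its value ran between -1.57 without wildtype replicate 2 and -0.66 without wildtype replicate 1. Hist1h2bg measured 210 and 42.3 CPM in the mutants, against 466 and 129.8 CPM in the wildtypes. These ranges overlap across pairs, but within each pair the mutant was lower, by -1.15 and -1.62 on the log2 scale. Its log2 fold change was -1.23 ± 0.68 (SE, edgeR adjusted p = 0.936) without the block and -1.38 ± 0.18 (adjusted p = 7.7e-05) with it. Without the block it was -2.82 when mutant replicate 1 was left out, -1.88 without wildtype replicate 2, -0.50 without mutant replicate 2 and -0.03 without wildtype replicate 1. In the authors' deposited table, 47 of 11507 rows were members and 2 of them were past a threshold of 0.05, where 43 of all rows (0.374%) were. In the authors' deposited table Hist1h2bg had a ratio of 0.386 (adjusted p = 8.77e-11) and Hist1h2bb a ratio of 0.458 (adjusted p = 1.02e-05). The authors' log2 values differed by at most 0.124 from the fit with the block and by at most 2.81 from the fit without it. They are of the same 4 libraries and no separate measurement.

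**Figure D5:**
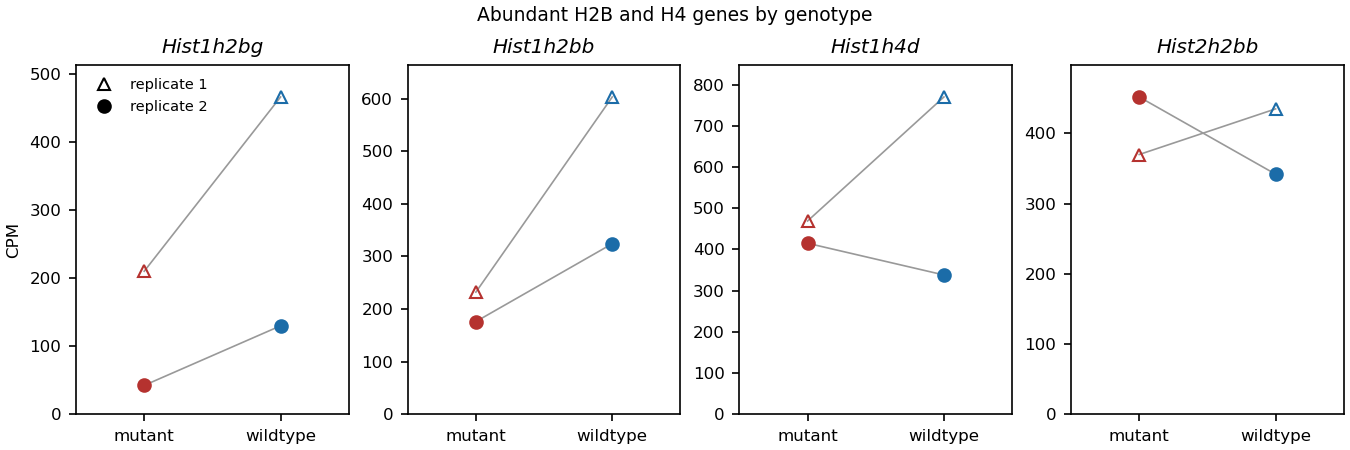
CPM of 4 abundant members in mutants (left) and wildtypes (right), with triangles for replicate 1, circles for replicate 2 and lines joining libraries of the same number; each axis starts at 0. Hist1h2bg and Hist1h2bb are lower in the mutant of both pairs, while Hist1h4d and Hist2h2bb differ in opposite directions between the pairs.

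Hist1h2bb and Hist1h2bg together held 442 and 218 CPM in the mutants, against 1069 and 454 CPM in the wildtypes. The other 17 H2B rows summed to 556 and 691 CPM in the mutants, against 682 and 576 CPM in the wildtypes, which overlap. Hist1h4d and Hist2h2bb, the other members of high mean CPM shown in the plot, did not show the same direction in both pairs. Hist1h4d differed by -0.71 in pair 1 and 0.30 in pair 2, and Hist2h2bb by -0.23 and 0.41.

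Over all 57 tested members the median log2 fold change between genotypes was -0.01, beside -0.003 over all tested genes, with 28 positive and 29 negative. The class medians were 0.09 for H1, -0.19 for H2A, -0.19 for H2B, -0.07 for H3 and 0.31 for H4, with 10 of 11 tested H4 genes positive. Within the pairs, 8 of the 11 H4 genes were higher in the mutant of both pairs, where 24.3% of all tested genes were. Hist2h4 differed by 0.81 and 0.73 in pairs 1 and 2 and Hist1h4f by 0.42 and 0.54. With the replicate block, 4 H4 genes were higher at an unadjusted p under 0.05 (Hist1h4c, Hist1h4f, Hist1h4k and Hist2h4), where 4.22% of tested genes were. None of the H4 genes passed the adjusted threshold by edgeR, with or without the block, or by DESeq2, and the lowest adjusted p with the block was 0.178, for Hist1h4c. The largest positive value was that of Hist2h4 at 0.76 ± 0.37 (SE, edgeR adjusted p = 0.891), with 5.67 and 10.1 CPM in mutant replicates 1 and 2, against 3.19 and 6.05 CPM in wildtype replicates 1 and 2. Without overlap, 4 members lay higher in mutants, where 17% of tested genes do, and 8 lay lower, where 16.3% do. Of these 8, 7 were H2B rows, 1 of them the pseudogene Hist3h2bb-ps. Hist1h1c, Hist1h1b and Hist1h1d, the H1 genes with the most reads, stood at 0.22, -0.33 and -0.08, and Hist1h3c and Hist1h3e, the H3 genes with the most reads, at 0.40 and 0.30. The H2A genes Hist2h2ac and Hist1h2af stood at 0.15 and -0.29.

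The genes linked to histones did not pass by genotype either. By edgeR 0 of 26 processing factors, 0 of 11 replication-independent histones, 0 of 31 S-phase genes, 0 of 22 mitotic genes, 0 of 19 chaperones and 0 of 64 other short RNAs passed, with or without the block. Some markers of blood cells rose in mutants. Leukocyte markers summed to 205 and 226 CPM in the mutants, against 136 and 131 CPM in the wildtypes, with 2 of 10 called (Ptprc and Mpeg1). Erythroid markers summed to 856 and 658 CPM in the mutants, against 587 and 596 CPM in the wildtypes, with 1 of 9 tested called (Hemgn, 5.76 and 5.29 CPM against 0.585 and 0.252 CPM). Hepatocyte markers summed to 28.9 and 41.8 CPM in the mutants, against 20.9 and 19.4 CPM in the wildtypes, with 3 of 4 tested positive. Cardiomyocyte markers summed to 49774 and 52578 CPM in the mutants, against 61466 and 56220 CPM in the wildtypes, with 7 of 8 negative (median -0.23). Endocardial markers summed to 929.9 and 962 CPM in the mutants, against 1001 and 1019.6 CPM in the wildtypes. With the block, 3 leukocyte, 2 erythroid and 2 hepatocyte markers were called higher, and 1 cardiomyocyte and 1 endocardial marker lower. Mesenchymal markers summed to 6625 and 5788 CPM in the mutants, against 6226 and 6202 CPM in the wildtypes, with 0 called by edgeR either way. The part of these cells in the values of Hist1h2bb and Hist1h2bg was not tested.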

How the data were processed

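The authors deposited raw read counts per gene symbol for 2 mutant and 2 wildtype libraries. The submitters' processing notes name mm10 and the tools TopHat2, Bowtie2, HTSeq, SAMtools and edgeR; the sources used here give no versions, annotation, strand setting or treatment of reads that fit several copies. Reads outside features were 51.8% to 54.4% of the tally and stayed out of library sizes and tests. Per the file headers, the authors' deposited comparison holds a likelihood ratio score, p-values, a fold change ratio and, on the log2 scale, fold changes and mean CPM; judged by the counts, its log2 values run wildtype over mutant, and they are turned round here.

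Counts were tested over 14316 genes with edgeR 4.0.16 in R 4.3.3 (TMM, filterByExpr, quasi-likelihood F test, Benjamini-Hochberg, threshold 0.05), by genotype and by replicate number with genotype in the model. SEs come from the F statistic; the biological coefficient of variation was 14.5%. Single-library log2 differences use a prior count of 2. Alternatives were DESeq2 1.42.0, limma-voom (limma 3.58.1), other scalings and filters, the replicate block and each library left out; fits were tested on simulated data. Counting limits cover counting error only.

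The design text speaks of littermate pairs, so equal numbers were read as pairs; deviations from the group means of libraries with the same number had a correlation of 0.144 over genes. Named were members past the threshold, the 3 of highest mean CPM per class, and the largest and smallest differences; a related list gave its members past the threshold or its 2 of highest mean CPM. Other members, given to complete a class, pair or block, were chosen after their values were seen. Members and lists were chosen with earlier results of these data known. Positions, lengths and transcripts are from GENCODE M21 (mm10).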

Additional observations from a re-analysis of the deposited data

How the results depend on the processing

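The count of members called by genotype was 0 under RLE and upper-quartile scaling, the stricter filter, library sizes without the members, DESeq2, limma-voom and a threshold of 0.10. All of these fits were without the replicate block. It was 2 without a low count filter, where 236 of 19935 genes were called. With the replicate block, which changed no other member's call, it was 2, where 127 of 14316 genes were called. With 1 library left out it ran between 0 and 11; it was 11 without mutant replicate 1 (6 higher and 5 lower) and 3 without mutant replicate 2, where a lone library is assumed to vary like the other group. The genotype median over members then ran between -0.21 and -0.00. These fits held no replicate block, so leaving out a library also unbalanced the replicate numbers between the genotypes. The part of this in the changes was not tested. The count by replicate number was 13 to 15 under other scalings, the stricter filter, library sizes without the members and the threshold of 0.10. With DESeq2 it was 9, and without a filter it was 22, where 118 of 19935 genes were called. Without genotype in the model it was 2 (Hist1h2ag and Hist1h4c), where 7 of 14316 genes were called. In fits without genotype and with 1 library left out it was 6 to 14 (7 without wildtype replicate 1), to be set beside those 2. Under every scaling tried, 6 H4 genes were called higher and 6 H2A genes lower in replicate 2. The genotype value of Hist1h2ai was 0.10 with limma-voom and 0.07 with the block, and -0.05 without it.
Leaving out 1 library turned the sign of these uncalled genotype values, on the log2 scale: Hist3h2a -0.53 to 0.53, Hist1h2ag -0.96 to 0.93, Hist1h2ai -0.63 to 0.94, Hist1h2ad -2.39 to 0.10, Hist1h3g -1.20 to 0.48, Hist1h4j -0.41 to 1.15, Hist1h4k -0.21 to 0.98, Hist1h4h -0.51 to 1.04, Hist1h4f -0.60 to 1.54, Hist1h4c -1.32 to 3.07, Hist1h4a -0.48 to 0.88, Hist2h2bb -0.08 to 0.27, Hist1h2an -1.48 to 0.07, Hist1h2ah -0.88 to 0.58, Hist1h2af -0.59 to 0.10, Hist1h4d -0.80 to 0.39, Hist2h2ac -0.11 to 0.48. These genotype fits had no replicate block, so with a library left out the difference between replicate numbers entered the genotype value. The log2 differences of pairs 1 and 2 shared a sign for Hist1h2ad, Hist1h2an, Hist1h4j, Hist1h4k, Hist1h4h, Hist1h4f, Hist1h4c and Hist1h4a. They had opposite signs for the other genes listed. Those of Hist1h4c were 1.1 and 0.55, and those of Hist1h4d -0.71 and 0.3. Values by replicate number that changed sign were Hist1h3c -0.12 to 0.32, Hist2h2bb -0.24 to 0.17, Hist1h2bb -1.27 to 0.10. Among these, Hist2h2bb was at 0.09 and 0.17 without wildtype replicates 1 and 2. Class sums between genotypes ran over H1 -0.11 to 0.15, H2A -0.41 to 0.41, H3 -0.02 to 0.24. The H4 sum also depended on the library, at -0.57 in pair 1 and 0.33 in pair 2. The H2B sum was at -0.81 in pair 1 and -0.18 in pair 2. Depth limits members near 3 reads, and 6 members had none.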
